A study of Mus musculus with 4 samples.

Results

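The genes described here encode keratocan (Kera) and 9 related proteins, lumican (Lum), decorin (Dcn), biglycan (Bgn), fibromodulin (Fmod), osteoglycin (Ogn), osteomodulin (Omd), asporin (Aspn), PRELP (Prelp) and epiphycan (Epyc). They were taken by gene name from all probes of the array that were not controls, which gave 10 genes of 34816 genes or transcripts, each with 1 probe. The family was chosen by the 4OHT difference of Kera in these data, so the values of Kera, and of the others in the same comparisons, are descriptions and no test was run on them. Gene expression was measured at 8 days postinfection (dpi) on 4 single-colour arrays, 1 for each of 4 groups of reprogramming mouse embryonic fibroblasts (MEFs). The fibroblasts were pooled from several male embryos (E13.5) that carried the Oct4-EGFP transgene, a reporter of the pluripotency gene Oct4. All groups had been infected with retroviruses for Oct4, Sox2 and Klf4 (OSK). Both OSKA groups also received AKT-MER, a fusion of the kinase AKT with part of an altered estrogen receptor that is switched on by 4-hydroxytamoxifen (4OHT). From day 3 the cells were given 4OHT (OSK + 4OHT and OSKA + 4OHT) or the ethanol vehicle (OSK − 4OHT and OSKA − 4OHT). The OSKA + 4OHT cells are the AKT-activated cells and the OSKA − 4OHT cells the AKT-nonactivated cells. A free-text label of the OSKA + 4OHT array is worded for cells without AKT activation, against its own title and the series design, and the title was used. As the study describes the system, the infected OSKA cells were divided when 4OHT was added, so both OSKA arrays would stem from the same infection. Whether the OSK and OSKA infections used a single pool of MEFs is not given in the sources used here. Each array measured a whole culture, not the reprogrammed cells within it.

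Small leucine-rich proteoglycans are secreted proteins of the extracellular matrix, whose leucine-rich repeats bind collagen and regulate how collagen fibrils assemble and how thick they grow. Many carry keratan sulfate or chondroitin or dermatan sulfate chains, and several, decorin and biglycan among them, bind transforming growth factor beta (TGF-beta). Keratocan and lumican are keratan sulfate proteoglycans of the cornea, where they serve its transparency, while decorin and lumican are also abundant products of ordinary fibroblasts. Several of the genes lie in clusters in the genome, with Dcn, Lum, Kera and Epyc side by side on one chromosome and Aspn, Omd and Ogn on another.

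A level here is a log2 intensity from which the array's 75th percentile was subtracted, so that 0 is the percentile itself, and values are listed in the order OSK − 4OHT, OSK + 4OHT, OSKA − 4OHT and OSKA + 4OHT. The 75th percentile lay at an intensity of 377 to 462, and 52.4% to 55.4% of spots were well above background. Every difference compares 1 array with 1 other, so none has a replicate check and no p-value is given. The error printed beside a difference is that of the scanner software's error model, combined over both arrays. It covers the measurement and not the variation between cultures, and its median over all genes was 0.21. The number of arrays limits the precision. A probe of Esr1, the estrogen receptor gene, did not stand well above background in OSK cells and read 3.11 and 3.32 on the OSKA arrays, at least 219-fold and 233-fold higher. Of the other 3 Esr1 probes, 1 gave an AKT-MER difference of 0.05 (log2) in the absence of 4OHT and at least 1.07 in its presence, and the remaining probes gave no value. All 9 fibroblast markers looked at were well above background on every array, with a summed level of 1451 to 1659 times the 75th percentile. All arrays lay on 1 slide, so position on the slide and group cannot be told apart.

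Kera was the member that differed most. Its intensity was 57.9 in OSK − 4OHT, 27.7 in OSK + 4OHT, 37.7 in OSKA − 4OHT and 293 in OSKA + 4OHT, which are levels of −2.996, −3.77, −3.42 and −0.39. It was thus low on the 3 arrays without AKT activation and high on the array of AKT-activated cells alone, 6.09-fold above the next highest array. With 4OHT the OSKA cells had 8.15-fold more Kera (log2 difference 3.03, error 0.24), the 6th highest difference of 20300 genes. In OSK cells the same treatment went with a lower value (−0.77, error 0.32). In bulk samples such as these, fewer cells of a type and less RNA per cell cannot be told apart.

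The Kera probe was printed 10 times on each array, whereas the other members had 1 spot each. Its spots read between 50.7 and 65.2 in OSK − 4OHT (median 57.8), between 19.8 and 37.1 in OSK + 4OHT (median 27.1) and between 29.2 and 45.0 in OSKA − 4OHT (median 38.8). In OSKA + 4OHT they read between 264 and 333 (median 291). No spot of the AKT-activated array overlapped with any spot of the other arrays, while on the level scale the spots of OSKA − 4OHT overlapped with those of both OSK arrays. The SD among spots was 0.10, 0.24, 0.21 and 0.11 on the log2 scale, and all spots were well above background except 1 of the 10 in OSK + 4OHT. These spots share 1 labelled RNA, so they show the precision of the array and not of the culture. With another background correction, normexp with an offset of 50 and quantile normalization, the 4OHT difference in OSKA cells was 1.87 in place of 3.03. The offset is added to every intensity, which by construction narrows the differences of dim probes such as this one.

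**Figure D1:**
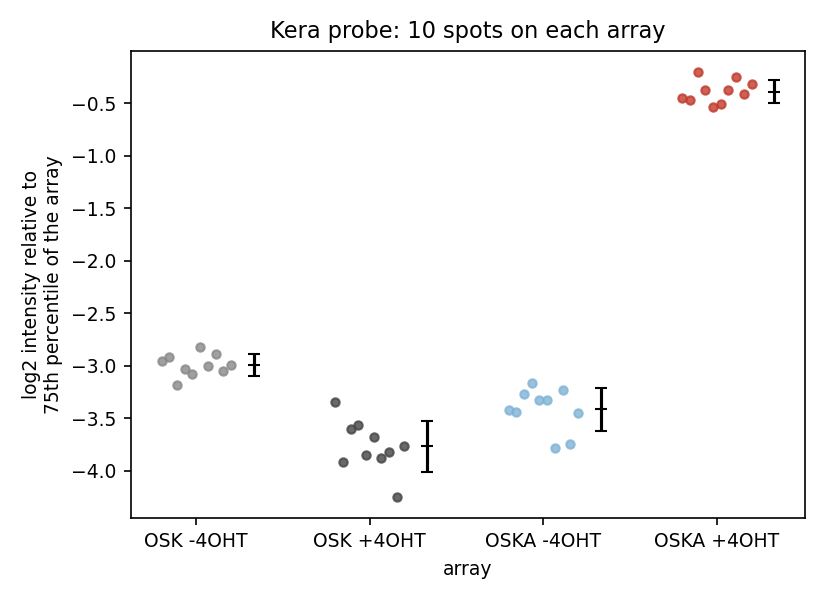
Each point is 1 of the 10 spots of the Kera probe on an array, as log2 intensity relative to the array's 75th percentile, and the bar is their mean with its SD. The OSKA + 4OHT spots average −0.39 and lie above all spots of the other arrays, which average −2.996, −3.77 and −3.42.

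The promoter stretches of 3 members are shown because they are the ones that differed most by 4OHT in OSKA cells, Kera and Epyc upwards and Omd downwards. That order is of the main processing, as Epyc was at 0.77 with normexp and quantile normalization, while Lum was never below 1.09. The stretches come from RefSeq (GRCm38.p6), run 5′ to 3′ on the strand of the gene and end at the base before the annotated transcription start. For Epyc (chr10:97643818-97644067, + strand, upstream of the first of its 2 annotated starts) and Omd (chr13:49582212-49582461, + strand) 250 bases are given, and for Kera, where another transcript model in RefSeq begins within those 250 bases, the last 30 (chr10:97607175-97607204, + strand). Capitals mark a match to the FOXO-type motif GTAAACA, here on the opposite strand.
Kera: catcctgaagcctgtcagagtggaaacaat
Epyc: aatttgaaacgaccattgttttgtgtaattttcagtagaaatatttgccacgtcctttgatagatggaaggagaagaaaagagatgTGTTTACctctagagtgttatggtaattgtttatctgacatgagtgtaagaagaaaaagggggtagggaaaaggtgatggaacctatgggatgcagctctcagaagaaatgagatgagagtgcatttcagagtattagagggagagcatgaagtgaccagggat
Omd: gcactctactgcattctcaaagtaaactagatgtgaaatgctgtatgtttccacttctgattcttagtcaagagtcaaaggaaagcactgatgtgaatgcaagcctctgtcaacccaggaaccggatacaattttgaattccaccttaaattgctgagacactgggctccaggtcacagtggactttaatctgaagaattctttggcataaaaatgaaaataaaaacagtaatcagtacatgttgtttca

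The promoter table held 8 of the members, all but Lum and Dcn, and 5 motifs were looked for on both strands in the 250 bases before each start, chosen after the expression values were known. GTAAACA, bound by FOXO factors, which AKT phosphorylates, occurred before Epyc, 164 bases upstream of the start, and not before the other 7 members. It occurred in 3.17% of all 32851 promoters. The TATA box TATAAA (12.4% of all promoters) was found before Ogn and Aspn, and the GGGNGTGG element bound by Klf4 (15.9%) before Prelp. The octamer ATGCAAAT bound by Oct4 (1.6%) was found before none of the 8, and the E-box CANNTG (66.2%) before Bgn, Fmod, Ogn, Aspn and Epyc. The Epyc E-boxes lie before its other start. No motif contains another. A match describes these letters only and was not tested as a binding site. The windows before Kera, which overlaps that other transcript model, and before Omd held 1 CpG each and that before the first Epyc start held 2, against a median of 6 over all promoters. Low counts were common, as 37.8% of all promoters held no more than 3, and Fmod and Aspn, which differed less, held 2 each.

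The 3 genes that lie beside Kera on chromosome 10 were also highest in the AKT-activated cells. Lum, like Kera a keratan sulfate proteoglycan of the cornea, read 4.75, 4.51, 5.03 and 6.16 (intensities of 12400, 8551, 13180 and 27370). It was well above background on every array and highest in OSKA + 4OHT, 2.18-fold above OSKA − 4OHT (1.13, error 0.20), and its neighbours in the order of the arrays all differed by more than their error. Epyc, a dermatan sulfate proteoglycan known from growth cartilage, did not stand well above background in OSK cells (intensities of 11.6 and 10.6). It read 28.7 in OSKA − 4OHT and 80.2 in OSKA + 4OHT, 2.94-fold higher with 4OHT (1.55, error 0.26). With normexp and quantile normalization this difference was 0.77 and no longer reached 2-fold.

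Dcn, the decorin gene and a collagen-binding product of fibroblasts, read 6.84, 7.09, 7.28 and 7.52. Both OSKA values lay above both OSK values and OSKA + 4OHT was highest, but the step from OSKA − 4OHT was 0.23 with an error of 0.20, and OSK + 4OHT and OSKA − 4OHT differed by less than their error.

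Omd, osteomodulin, a keratan sulfate proteoglycan of bone matrix, went the other way. It read 2.74, 2.20, 2.31 and 0.48 (intensities of 3079, 1731, 1997 and 536). It was lowest in the AKT-activated cells, where it was 3.54-fold lower than in OSKA − 4OHT (−1.83, error 0.20), the 12th lowest difference of 20300 genes. The other 3 arrays spanned 0.54, and OSK + 4OHT and OSKA − 4OHT did not differ beyond their error.

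None of the remaining 5 members differed by 2-fold in any comparison. Ogn, osteoglycin, also known as the corneal keratan sulfate proteoglycan mimecan, read 5.76, 5.29, 5.68 and 4.97, and Fmod, the collagen-binding fibromodulin, read 3.14, 2.94, 2.95 and 2.30. Bgn, biglycan, the closest relative of decorin, read 4.36, 3.92, 4.23 and 3.68. These 3 were lowest in OSKA + 4OHT, with 4OHT differences in OSKA cells of −0.71, −0.66 and −0.56 (error 0.20 each). In OSK cells, without AKT-MER, their 4OHT differences were −0.47, −0.20 and −0.44. The difference in OSKA cells less that in OSK cells was −0.24, −0.46 and −0.11 (error 0.29 each), within the error for Ogn and Bgn. Prelp, a heparin-binding member, read −1.41, −1.80, −1.87 and −2.01, and its 4OHT difference in OSKA cells (−0.14, error 0.22) was within its error. Aspn, asporin, another relative of decorin, read 1.79, 1.49, 2.004 and 1.58, and was the member for which OSKA + 4OHT lay within the range of the other arrays.

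**Figure D2:**
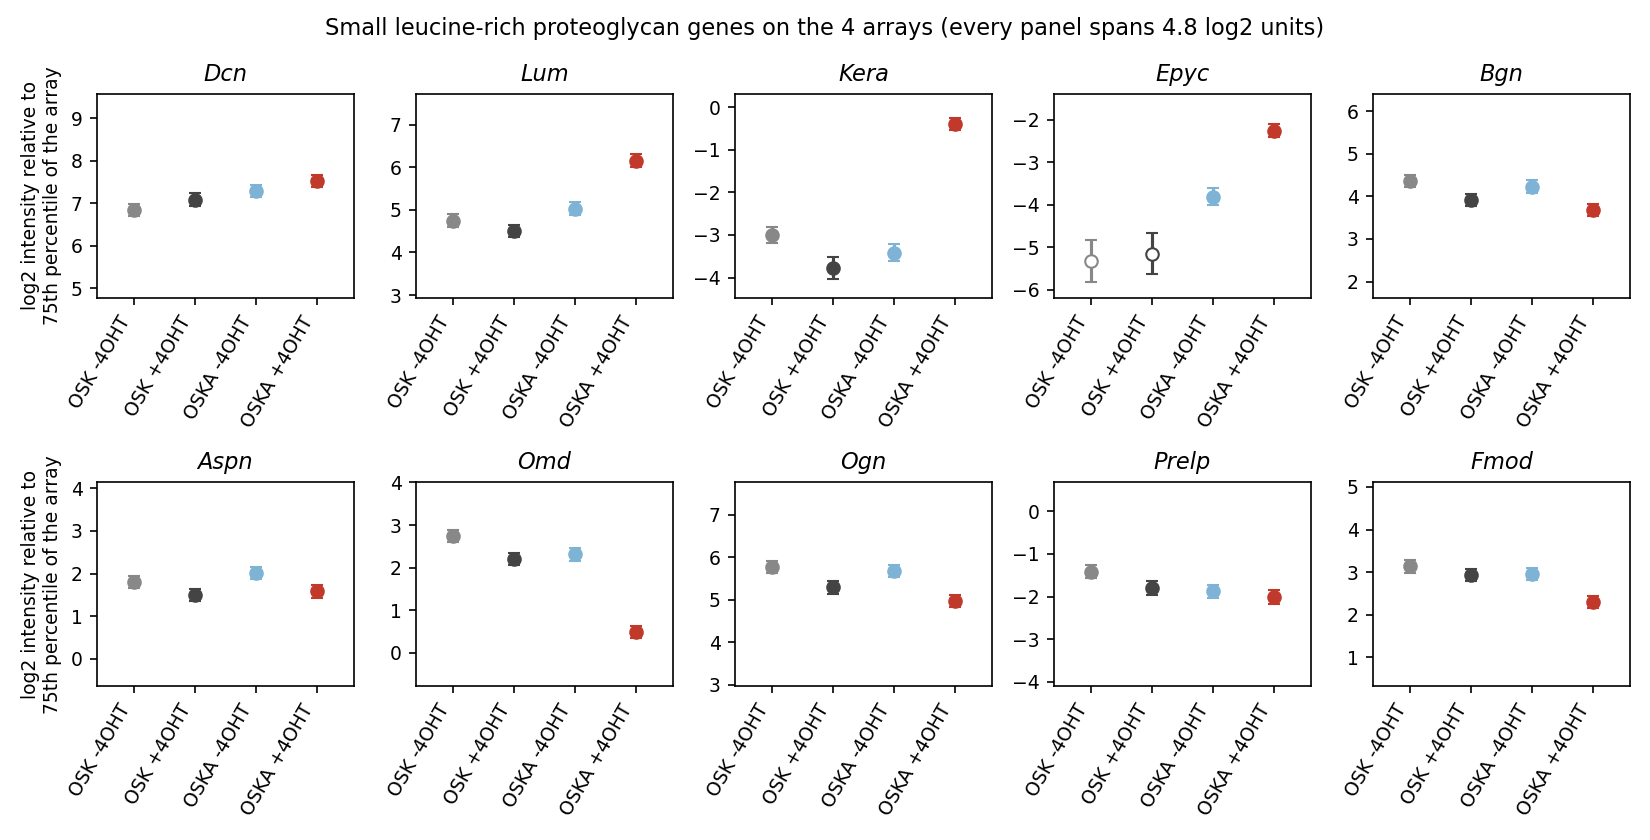
Each panel shows 1 gene as log2 intensity relative to the array's 75th percentile on the 4 arrays, with the error of the scanner software as bars and open circles where a probe was not well above background. Kera, Lum and Epyc are highest on the OSKA + 4OHT array (−0.39, 6.16 and −2.26) and Omd is lowest there (0.48).

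Over the family, 4OHT in OSKA cells went with at least 2-fold higher levels of 3 of the 10 members (Kera, Epyc and Lum) and a lower level of 1 (Omd). Among the 20300 genes with a difference in OSKA cells, 2.91% reached 2-fold, 2.01% upwards and 0.901% downwards. As these members were chosen with this comparison known, the counts are a description. The median difference of the 10 was −0.28, against −0.03 over all genes, and 6 of the 10 had values below 0, as did 54.8% of all genes. Of the 9 members measured on all arrays, the OSKA + 4OHT array was above each of the other 3 arrays for 3 (Kera, Lum and Dcn) and below each for 5. Over all 19540 genes measured on all arrays these shares were 27.3% and 37.5%, so the counts alone lie near the background.

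4OHT alone, in OSK cells without AKT-MER, gave no difference of 2-fold or more in any of the 9 members measured, where 0.886% of 19861 genes had one (0.609% higher and 0.277% lower). Of the 9, 8 had values below 0, as did 50.6% of all genes, with a median of −0.39 against −0.004 over all genes. Kera had the lowest value (−0.77), followed by Omd (−0.54, error 0.20) and Ogn (−0.47, error 0.20), and Dcn was the one above 0 (0.25, error 0.20). Scaled to the spike-in controls in place of the 75th percentile, which moved the median of all genes by −0.26, Dcn was at −0.01 and Kera passed 2-fold (−1.03). With normexp and quantile normalization Kera was at −0.30, within its error.

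The presence of AKT-MER without 4OHT likewise gave no 2-fold difference in the 9 members measured on both arrays, with 2.02% of 20183 genes reaching it (1.09% higher and 0.931% lower). Values lay between −0.46 for Prelp and 0.44 for Dcn, with a median of −0.13. Kera was at −0.42 (error 0.27) and Omd at −0.43 (error 0.20). Lum (0.28) and Aspn (0.21) lay above 0 but at −0.02 and −0.09 under spike-in scaling, which moved the median of all genes by −0.30. Epyc was at least 1.81-fold higher in OSKA − 4OHT, since it was well above background there and not in OSK − 4OHT.

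With 4OHT present in both, OSKA cells exceeded OSK cells at least 2-fold for Kera (10.4-fold, 3.38, error 0.30) and Lum (3.15-fold, 1.65, error 0.20), and Omd was 3.29-fold lower (−1.72, error 0.20). That is 3 of the 9 members measured on both arrays, where 3.04% of 19846 genes were at least 2-fold different (1.92% higher and 1.12% lower). Epyc was at least 4.88-fold higher. With normexp and quantile normalization the difference of Kera was 1.99 in place of 3.38. This comparison and the 4OHT comparison in OSKA cells share the OSKA + 4OHT array, so they are not 2 separate observations. The other 6 members lay between −0.64 (Fmod) and 0.43 (Dcn).

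**Figure D3:**
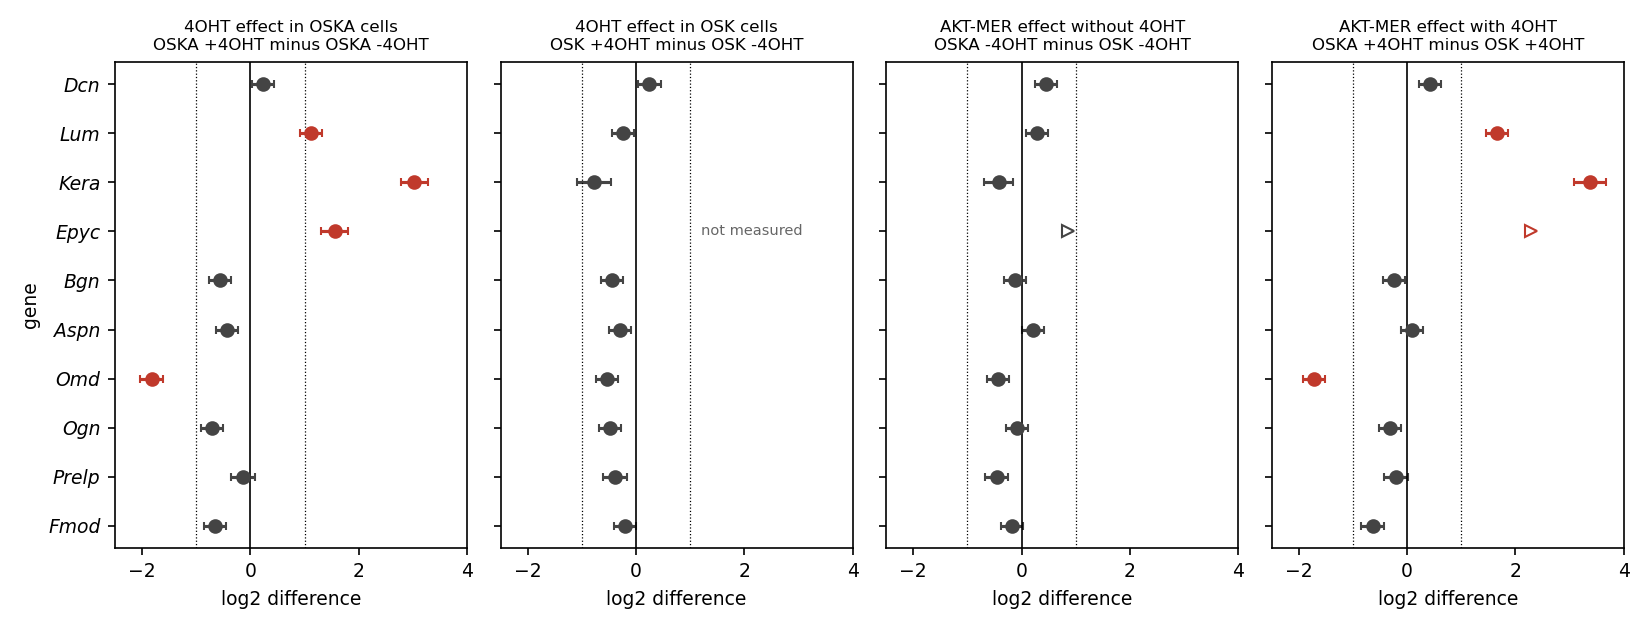
Log2 differences of the 10 genes in the 4 comparisons, with the combined error of the scanner software as bars, red where at least 2-fold (dotted lines at −1 and 1) and open triangles for lower bounds. Kera (3.03 and 3.38), Lum (1.13 and 1.65) and Omd (−1.83 and −1.72) pass 2-fold in the first and the last comparison, which share the AKT-activated array, and no gene measured on both arrays does in the other 2.

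By position, the members of the chromosome 10 cluster had 4OHT differences above 0 in OSKA cells and all 6 members elsewhere had differences below 0, those of Dcn and Prelp being close to their error. In the mouse NCBI37 (mm9) assembly, the probes lie on chromosome 10 at 96980233 to 96980292 (Dcn), 97035210 to 97035269 (Lum), 97076230 to 97076289 (Kera) and 97143965 to 97144024 (Epyc). The Lum, Kera and Epyc probes are 55.0, 96.0 and 163.7 kb from that of Dcn. The nearest genes with a probe on either side of this cluster, 4930556N09Rik and Gm10754, and 4930473O22Rik between Lum and Kera, were not well above background on any array, so no difference can be given for the flanks.

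On chromosome 13 the probes of Aspn (49662479 to 49662538), Omd (49687847 to 49687906) and Ogn (49719549 to 49719608) gave −0.43, −1.83 and −0.71. Omd in the middle was thus the lowest of its cluster. The flanking genes were at −0.59 (Ecm2, error 0.37), another leucine-rich matrix protein, and −0.08 (Nol8). On chromosome 1 the Prelp (135806855 to 135806914) and Fmod (135943998 to 135944057) probes gave −0.14 and −0.66, with Optc at −0.54 and Btg2 at −0.22 beside them. Bgn (X chromosome, 70738554 to 70738613) gave −0.56, and Haus7 next to it gave −0.02.

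**Figure D4:**
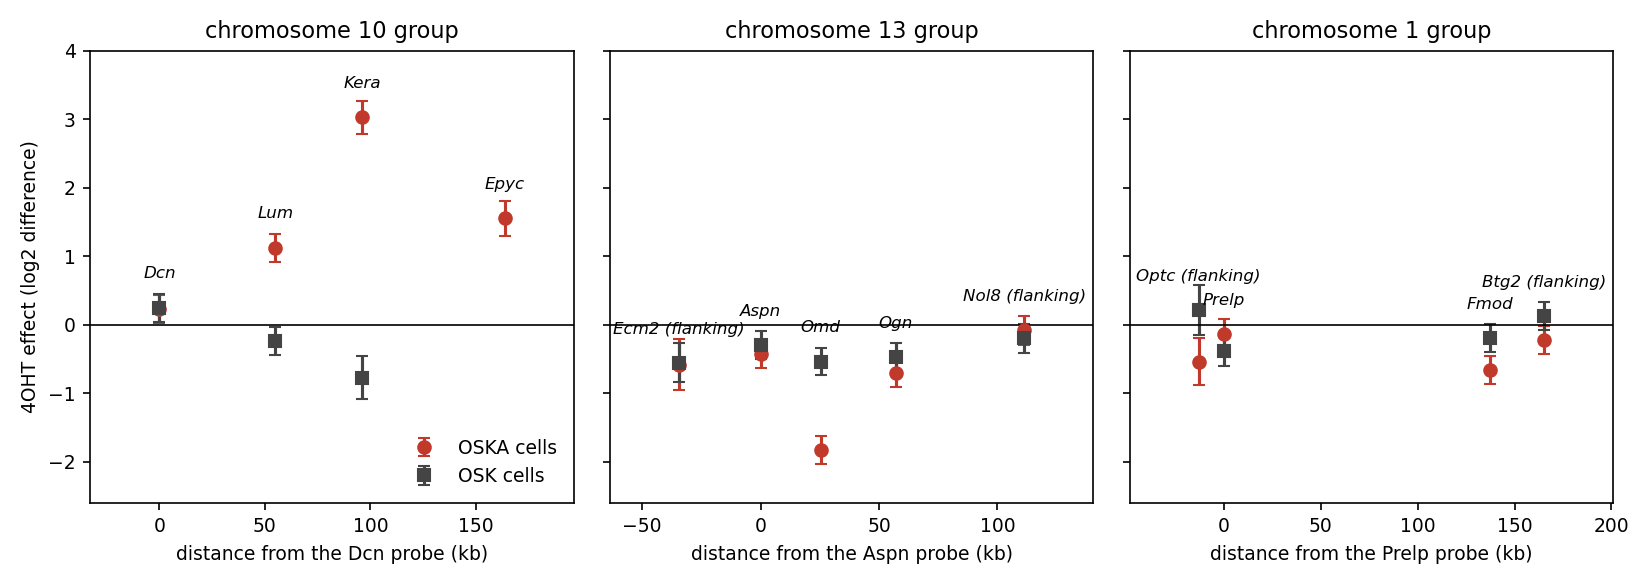
4OHT differences (log2) of the genes of 3 clusters in OSKA cells (red circles) and OSK cells (dark squares) by the distance of their probes in kb, with the scanner software's error as bars. On chromosome 10 Lum, Kera and Epyc stand at 1.13, 3.03 and 1.55 in OSKA cells. On chromosome 13 Omd stands at −1.83 in OSKA cells and at −0.54 in OSK cells.

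The member probes are distinct in sequence. No pair of them shared a run of more than 9 of their 60 bases, over 45 pairs. Against probes of other genes the Kera probe shared at most 16 bases and the Prelp probe 18, and the others fewer than 15.

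Keratan sulfate chains are built by a small set of glycosyltransferases and sulfotransferases. Of the 6 such genes measured on both OSKA arrays, 2 were at least 2-fold higher with 4OHT and none lower, and their median was 0.02. The remaining gene of the list, B3gnt7, was well above background in OSKA − 4OHT alone and at least 1.525-fold lower in OSKA + 4OHT. Chst5, a sulfotransferase acting on N-acetylglucosamine, read −1.24, −1.53, −1.71 and 0.32. It was highest in the AKT-activated cells, 4.08-fold above OSKA − 4OHT (2.03, error 0.21). Chst2, a sulfotransferase of the same group, read −0.20, −0.60, −0.33 and 0.73, 2.08-fold higher (1.06, error 0.20), with 1.41 on its other probe. Chst1, which sulfates the galactose of keratan sulfate, was at −0.47. In OSK cells with 4OHT, Chst5 was at −0.29 and Chst2 at −0.40.

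The other related gene lists held few such differences. Of 21 genes of chondroitin and dermatan sulfate synthesis measured in OSKA cells, 1 was at least 2-fold higher with 4OHT, the chondroitin synthase Chsy3 (1.25), and the median was 0.09. In the comparison of AKT-MER without 4OHT the sulfotransferase Chst3 was lower (−1.12). Among 7 other proteoglycan core proteins the versican gene Vcan was higher (1.07, with 0.83 and 0.87 on its other probes), with a median of 0.20. The 7 measured members of the wider leucine-rich proteoglycan family were all below 0, none by 2-fold, with a median of −0.14 and the lowest value for Podn (−0.67). None of the 9 fibrillar collagens, to which these proteins bind, differed by 2-fold (median 0.10), the highest being Col11a1 (0.53) and Col3a1 (0.49). None of 6 TGF-beta ligands and receptors did (median −0.26, lowest Tgfb3 at −0.81). With normexp and quantile normalization Chst2 (0.98) and Chsy3 (0.48) were under 2-fold, and Vcan was so (0.92) as the mean of its probes.

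**Figure D5:**
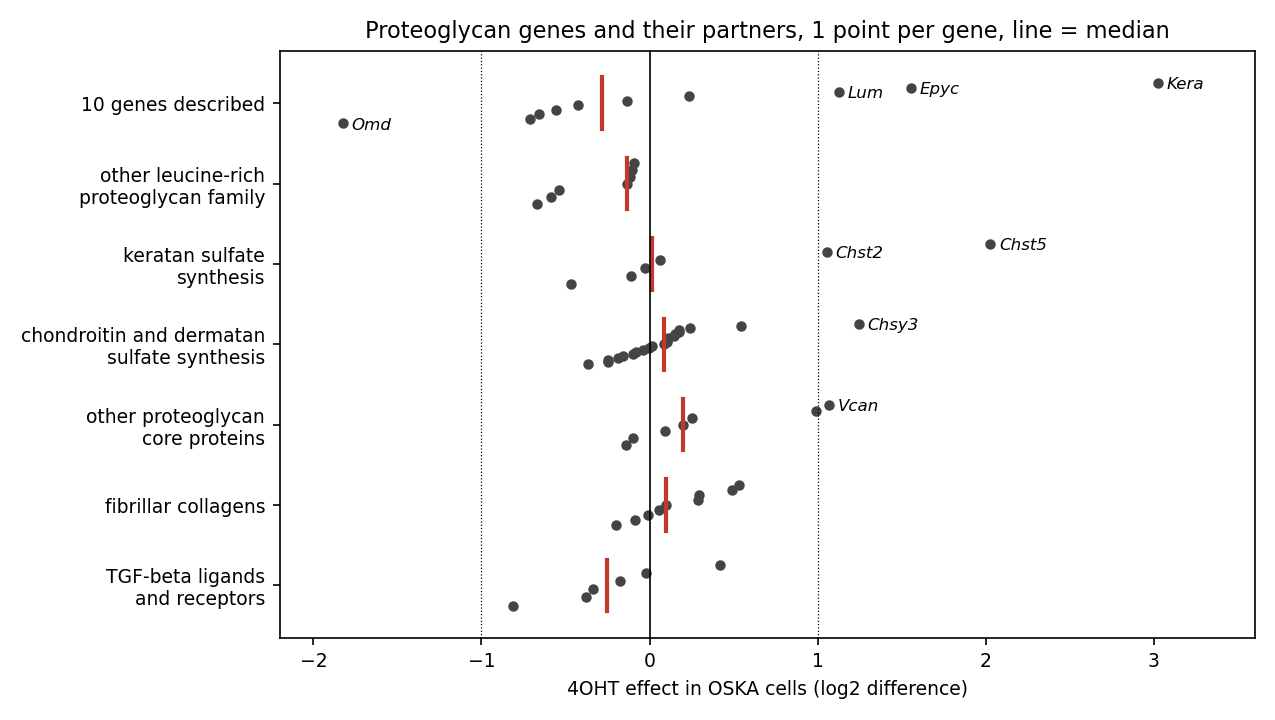
Log2 differences by 4OHT in OSKA cells, with 1 point for each gene measured on both arrays, the red line at the median of each list and names at 2-fold or more. Kera (3.03) and Chst5 (2.03) lie farthest to the right, and the medians of the 6 related lists lie between −0.26 and 0.20.

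Markers of cell types that use these proteins were read on the same arrays. Of the corneal keratocyte markers other than Kera itself, 1 of 5, the prostaglandin synthase Ptgds (2.02), was at least 2-fold higher with 4OHT in OSKA cells, 4 of the 5 were above 0 and the median was 0.54. Kera, Ptgds and Aldh1a1 (0.97) were highest in OSKA + 4OHT, whereas Aldh3a1, Cd34 and Angptl7 were highest on an OSK array. Aldh1a1 was also higher with 4OHT in OSK cells (0.68) and with AKT-MER in the absence of 4OHT (0.70). For Cd34 the highest arrays were close, with 6.93 in OSK − 4OHT and 6.88 in OSKA + 4OHT. The summed level of the list with Kera was 227, 184, 130 and 184, and came mostly from Aldh3a1 and Cd34. Of the 7 osteoblast markers 3 could be measured on both OSKA arrays. All 3 were at least 2-fold higher with 4OHT, as were 2.01% of all genes. They were Bglap2 (osteocalcin) at 3.83, Phex at 1.74 and Alpl at 1.503. Alpl read −2.10, −2.53, −3.08 and −1.575, so it was lowest in OSKA − 4OHT. With 4OHT present in both, Alpl was 0.955 higher in OSKA than in OSK cells, under 2-fold. Bglap was well above background in OSKA + 4OHT alone and at least 5.71-fold higher than in OSKA − 4OHT. The summed level of the list was 0.49, 0.43, 0.42 and 3.43, and in OSKA + 4OHT came mostly from Bglap2. The other osteoblast markers of the list, Sp7, Ibsp and Dmp1, were not well above background on any array.

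The cartilage list had 1 of 6 measured genes at least 2-fold higher, Sox9 (1.06), and 5 of the 6 were above 0. Its summed level was 18.5, 14.6, 13.9 and 14.5, and came mostly from Col2a1, which read 4.14, 3.79, 3.68 and 3.67. Of 4 tendon markers the transcription factor Scx was lower (−1.06), and the summed level was 10.1, 9.87, 9.14 and 5.14. Fibroblast markers had no 2-fold difference among 9 (median 0.06). Epithelial markers had Cldn3 higher (1.52) and Esrp1 lower (−1.27) among 6, with a summed level of 4.42, 3.47, 2.52 and 4.03. Cldn3 read −0.38, −0.81, −1.39 and 0.13, so it was lowest in OSKA − 4OHT. In the comparison of AKT-MER without 4OHT, 3 of the 6 were at least 2-fold lower, against 0.931% of all genes. These were Cdh1 (−1.05), Krt8 (−1.23) and Cldn3 (−1.005). Of the pluripotency markers none of 4 measured differed by 2-fold, their summed level was 3.14, 4.26, 4.37 and 3.00, and Zfp42 and Esrrb were not well above background on any array. Under normexp and quantile normalization the values of Phex (0.82), Alpl (0.80), Sox9 (0.86), Scx (−0.999) and Esrp1 (−0.39) were under 2-fold. The part of these markers in the values of Kera, Lum, Epyc and Omd was not tested.

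The genes most like Kera over the 4 arrays were found by the distance between log2 levels centred on each gene's own mean, among 14276 genes with a symbol that were well above background on every array. They were Slc8a2, a sodium-calcium exchanger (distance 0.47), Krt16, an epidermal keratin (0.48), Col22a1, a collagen of tissue junctions (0.60), Gm11559 (0.70) and Cyp4f14, a cytochrome P450 (0.71). Their 4OHT differences in OSKA cells were 2.75, 3.09, 2.92, 2.38 and 2.19. Within the family Lum was nearest (1.49) and Omd farthest (4.28), and Epyc was not compared as it was not well above background on every array. The distances rest on 4 arrays and describe the likeness of profiles alone.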

How the data were processed

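Total RNA (100 ng) was labelled with Cy3 and hybridised to 1 array per group. The deposited scanner files hold, per the file headers, an intensity per spot on a linear scale, which the authors obtained with Feature Extraction 10.7.3.1, corrected for background and spatial trend and not normalized between arrays. The authors' series table repeats this intensity, within a ratio of 0.995 to 1.005, with medians of 23.8, 19.6, 21.5 and 20.1.

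From these, the 75th percentile of the non-control spots was subtracted from the log2 intensities of an array. Between 104 and 155 spots per array marked as uneven or as outliers were left out, and none was saturated. Spots of a probe were averaged, and a gene took its probe with the highest mean. Of 55681 probes, 27509 (49.4%) were named through RefSeq (GRCm38.p6). A difference needed a probe well above background on both arrays. With 1 such array, the brighter array was compared with the dim probe's own signal or, where larger, with the lowest signal that counted as well above background there, which gives a lower bound, written "at least N-fold". With 1 array per group no test was run. The 4 comparisons were counted at 2-fold. The family, lists, markers and the rules for named genes (members at least 2-fold different, otherwise the largest differences) were chosen with earlier results of these data known. The scripts (Python 3.11.15, pandas 2.3.3, R 4.3.3, limma 3.58.1 for normexp) were tested on simulated data. Alternatives covered background correction, scaling, filter, probe choice, table and threshold.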

Additional observations from a re-analysis of the deposited data

Results flagged for a closer look

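Kera and Lum had effects of 4OHT of opposite sign in the presence and absence of AKT-MER. For Kera the difference was 3.03 in OSKA cells and −0.77 in OSK cells, 3.80 apart on the log2 scale (software error 0.40). With normexp and quantile normalization these effects were 1.87 and −0.30, the latter within its software error of 0.32. For Lum it was 1.13 and −0.24, 1.37 apart (error 0.29). With 1 array per group the difference between the effects was not tested.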

How the results depend on the processing

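No called difference of a family gene changed sign under any of the alternatives run. Under spike-in scaling, 1 family gene (Kera) passed 2-fold in OSK cells with 4OHT, where none did otherwise, and the median of the family was −0.65 there and −0.43 for AKT-MER without 4OHT. At 1.5-fold in place of 2-fold, 6 family genes were counted for 4OHT in OSKA cells (3 higher and 3 lower, with Fmod and Ogn added, against 9.69% of all genes), 1 (Kera) for 4OHT in OSK cells (5.95%), none for AKT-MER without 4OHT (9.65%) and 4 for AKT-MER with 4OHT (Fmod added, 10.6%), leaving out Epyc, whose lower bounds of 1.81-fold and 4.88-fold in these last comparisons also exceed it. Without the filter on dim probes, 1 gene (Epyc) was counted for AKT-MER without 4OHT, and Epyc was added to those counted with 4OHT. Epyc was lost in OSKA cells with normexp and quantile normalization and by requiring all 4 arrays above background. Among the differences of single genes, family and list genes together, 807 moved by less than the software's error and 78 by more, that error standing in for the missing replicates. The normexp offset narrows differences of dim probes by construction, and the cause of each shift was not tested. No paired analysis was possible because each group had 1 array. The dim signals of Kera and Epyc outside the AKT-activated cells limit how well their differences are known.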
